A study of Mus musculus with 8 samples.

Results

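The kainate receptor genes Grik1, Grik2, Grik3, Grik4 and Grik5 and the auxiliary subunit genes Neto1 and Neto2 were taken from the table of normalised gene expression by their symbol. Each of the 7 symbols occurred in 1 row, among 23939 different symbols and 56575 features in all, and all 7 passed the minimum for testing, a mean of 10. The table covers RNA-seq libraries from the hippocampus of C57BL/6 mice aged 8 weeks, 4 labelled WT and 4 labelled Slm2KO, in which the gene of the splicing regulator SLM2 (Khdrbs3) is named as the target. The labels give neither the sex of the animals, nor the part of Khdrbs3 that was removed, nor whether the libraries stem from separate animals. The p-values therefore speak only of variation among these libraries, part of which may be technical. Because the labels number the libraries, they are called WT 1 to WT 4 and Slm2KO 1 to Slm2KO 4 below.

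Kainate receptors are glutamate-gated cation channels built as tetramers. GluK1, GluK2 and GluK3 (Grik1, Grik2 and Grik3) form channels on their own, whereas the high-affinity subunits GluK4 and GluK5 (Grik4 and Grik5) reach the surface as functional channels only together with one of the former. Neto1 and Neto2 are single-pass membrane proteins that bind these receptors, slow their gating and alter their affinity for agonist. In the hippocampus kainate receptors are best known at the mossy fibre synapse, where granule cell axons of the dentate gyrus contact CA3 pyramidal cells, and in GABAergic interneurons. The gene-level table says nothing of splice forms or of RNA editing of these genes.

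The promoter windows of Grik3, Grik4 and Grik5 are shown because these 3 genes had their highest value in the same library and their lowest value in the same library. Each window is 300 bases, from 250 before to 50 after the start that RefSeq lists on GRCm38.p6. It is printed 5′ to 3′ on the strand of the gene with every CG dinucleotide in capitals. The RefSeq start can differ from that of the gene as counted. Counted Grik4 begins at 42944499, within its window and upstream of the RefSeq start. Counted Grik3 begins at 125490823, beyond the end of its window.
Grik3, chr4:125490446-125490745, plus strand: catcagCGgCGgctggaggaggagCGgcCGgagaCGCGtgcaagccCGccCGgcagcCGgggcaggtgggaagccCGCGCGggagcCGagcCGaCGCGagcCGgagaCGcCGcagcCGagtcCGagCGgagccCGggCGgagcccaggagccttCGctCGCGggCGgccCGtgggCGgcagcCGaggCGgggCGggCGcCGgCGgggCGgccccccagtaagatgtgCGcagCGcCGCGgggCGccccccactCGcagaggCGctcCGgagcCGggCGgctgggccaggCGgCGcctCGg
Grik4, chr9:42944322-42944621, minus strand: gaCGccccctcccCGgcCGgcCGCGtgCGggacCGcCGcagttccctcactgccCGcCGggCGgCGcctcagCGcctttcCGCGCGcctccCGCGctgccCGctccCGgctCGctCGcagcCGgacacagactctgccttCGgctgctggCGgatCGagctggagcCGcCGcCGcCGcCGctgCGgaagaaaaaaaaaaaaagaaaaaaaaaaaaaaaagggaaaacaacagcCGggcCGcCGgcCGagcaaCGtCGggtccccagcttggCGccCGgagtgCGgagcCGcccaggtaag
Grik5, chr7:25072320-25072619, minus strand: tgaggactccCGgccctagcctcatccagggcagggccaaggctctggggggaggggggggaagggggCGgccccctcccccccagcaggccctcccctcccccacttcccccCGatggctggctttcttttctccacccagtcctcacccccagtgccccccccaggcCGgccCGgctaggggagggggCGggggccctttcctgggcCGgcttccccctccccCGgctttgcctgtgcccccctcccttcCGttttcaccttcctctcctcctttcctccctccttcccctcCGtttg
The Grik3 window held 50 CG dinucleotides, more than 99.1% of the 32851 windows of the RefSeq table, whose median was 7. Grik4 held 42, more than 97.0% of windows. Grik5, which had the highest level of the 7 genes, held 10, more than 56.5% of windows, although its G and C content of 72.0% was close to the 70.0% of Grik4 and below the 82.0% of Grik3. The motif GGGCGG, counted on both strands with overlaps, occurred 7 times in the Grik3 window, 2 times in that of Grik4 and 2 times in that of Grik5, and 35.7% of all windows held it at least 1 time. The Grik2 window held 26 CG dinucleotides and no GGGCGG. For Neto2 RefSeq lists 2 starts, a window with 36 CG dinucleotides and an internal one with 0. In all, 5 of the 7 genes matched a window.

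Summed over all features, 104020058 to 125985224 counted reads per library were recovered from the normalised values. Khdrbs3, the targeted gene, was not lower but higher under the Slm2KO label, with a normalised read count of 22051 ± 2387 in WT and 29749 ± 3040 in Slm2KO (SD, n = 4 each). The groups did not overlap, at 19457 to 24544 in WT and 25932 to 33366 in Slm2KO. The log2 difference was 0.43, which did not pass adjustment (limma unadjusted p = 0.00086, adjusted p = 1.00). Slm2KO below therefore means the libraries labelled Slm2KO. The 8 excitatory neuron markers of the list for the tissue check (among them Slc17a7, Neurod6 and Camk2a) were all present, with a summed value of 543785 to 640462 in WT and 483251 to 658115 in Slm2KO. Ttr, made by choroid plexus epithelium, ran from 219052 in WT 2 to 2262369 in Slm2KO 4. Y-linked genes summed to 19264 in WT 4, 17979 in Slm2KO 3 and 19517 in Slm2KO 4, and to at most 3.62 in the other libraries. Neither label therefore stems from a single animal, and the labels differ in how many libraries held Y-linked reads. In such bulk tissue, fewer cells of a type and less RNA per cell cannot be told apart.

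Per kilobase of exon, the high-affinity subunits and Neto1 stood well above the other genes. Grik5 had the highest level, at 6753 ± 420 normalised reads per kilobase in WT and 6383 ± 650 in Slm2KO (SD, n = 4 each). Neto1 followed at 3029 ± 250 and 3242 ± 315, and Grik4, a subunit best known from CA3 pyramidal cells, at 2706 ± 307 and 2540 ± 323. Grik2, the most abundant of the subunits that form channels on their own, was at 916 ± 19.95 and 966 ± 60.5. Neto2 was at 346 ± 38.2 and 360 ± 33.7, and Grik1, known for its expression in interneurons, at 293 ± 12.5 and 283 ± 19.3. Grik3, known from dentate granule cells, was lowest at 155 ± 5.69 and 137 ± 8.57.

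That order held in every library for each pair of neighbours. Grik5 was 2.09 times Neto1 over the 8 libraries, Grik4 2.79 times Grik2 and Grik2 2.67 times Neto2, in each case with ranges that did not overlap. Neto1 and Grik4 were the exception: their ratio was 1.195 and their ranges over the libraries overlapped, although Neto1 was higher in 8 of 8 libraries. Neto2 was 1.23 times Grik1, and Grik1 1.97 times Grik3. These levels rest on the length used, here the annotated coding-transcript exons that lie inside the span of the deposited gene (3685 bases for Grik4 to 8850 for Grik3), since the labels do not describe the counted gene models. With the longest annotated coding transcript as the length, Neto1 exceeded Grik4 in 4 of 8 libraries (ratio 1.02) and Neto2 exceeded Grik1 in 7 of 8 (ratio 1.12), so these 2 pairs are not ordered beyond their spread.

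**Figure D1:**
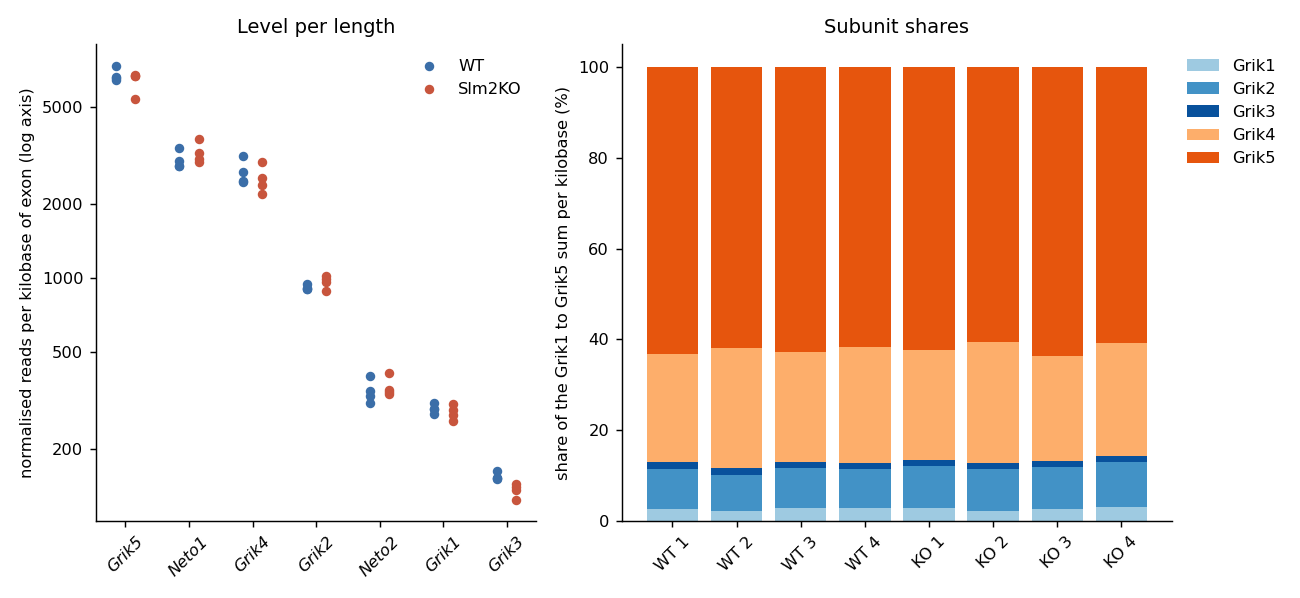
Left, normalised reads per kilobase of exon on a log axis for the 7 genes, 1 point per library, WT in blue and Slm2KO in red. Right, the share of each subunit gene in the Grik1 to Grik5 sum per kilobase in each library: Grik5 takes 60.6% to 63.7% throughout. KO on the axis stands for Slm2KO.

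Grik5 and Grik4 together made up 87.4% ± 0.665 of the kainate receptor sum per kilobase in WT and 86.5% ± 0.691 in Slm2KO (SD, n = 4 each). The share of Grik5 was 62.4% ± 0.715 in WT and 61.9% ± 1.47 in Slm2KO, and that of Grik4 25.0% ± 1.19 and 24.6% ± 1.51. Both pairs of groups overlapped. Grik1 took 2.72% ± 0.260 and 2.77% ± 0.324, and Grik3 1.43% ± 0.0425 and 1.33% ± 0.0607, also with overlap.

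The share of Grik2 was the single subunit share whose groups did not overlap. It was 8.71%, 7.94%, 8.76% and 8.51% in WT 1 to WT 4, and 9.26%, 9.19%, 9.22% and 9.92% in Slm2KO 1 to Slm2KO 4. The group means were 8.48% ± 0.378 and 9.40% ± 0.350, a difference of 0.917 percentage points. Per length, Grik5 was 7.16 to 7.81 times Grik2 in WT and 6.13 to 6.92 times Grik2 in Slm2KO. These shares are a description and carry no test. Without WT 2 and Slm2KO 4 the difference in the Grik2 share was 0.562 percentage points.

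Within the Neto pair, Neto2 held 10.3% ± 1.08 of the sum per kilobase in WT and 9.99% ± 0.419 in Slm2KO, so Neto1 exceeded Neto2 by 7.52 to 9.83 times over the 8 libraries. The Neto sum relative to the kainate receptor sum was 0.302, 0.314, 0.311 and 0.320 in WT 1 to WT 4. In Slm2KO 1 to Slm2KO 4 it was 0.320, 0.367, 0.341 and 0.373. Slm2KO 1, at 0.3197, fell just under WT 4, at 0.3199, so the groups met at that point, with means of 0.312 ± 0.00749 and 0.350 ± 0.0244. Among ionotropic glutamate receptor genes, the 5 kainate genes made up 20.9% ± 0.774 of the sum per kilobase in WT and 20.2% ± 0.182 in Slm2KO. The 4 AMPA receptor genes held 55.3% ± 1.26 and 56.6% ± 0.937, and the 6 NMDA receptor genes measured 18.9% ± 0.963 and 18.4% ± 0.568.

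Between the labels, none of the 7 genes passed the test: 0 of 7 had an adjusted p under 0.05 in limma, where 0.00390% of the 25667 features tested passed (Khdrbs2 alone, the SLM1 gene, higher in Slm2KO). Each of the 7 had an adjusted p of 1.00 in limma and edgeR, and of 0.955 to 1.00 in DESeq2. At an unadjusted p under 0.05, 1 of 7 was counted by limma, edgeR and DESeq2 alike (Grik3, lower), against 3.52% of all features in limma, 1.82% lower and 1.70% higher. By fitted difference 3 were positive (Grik2, Neto1 and Neto2) and 4 negative, with a median of -0.05 on the log2 scale, and -0.01 over all features. Among these libraries the fit limits the size of a difference between the labels. For all 7 genes the 95% interval lay within 1.5-fold in either direction, as it did for 65.7% of features tested.

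**Figure D2:**
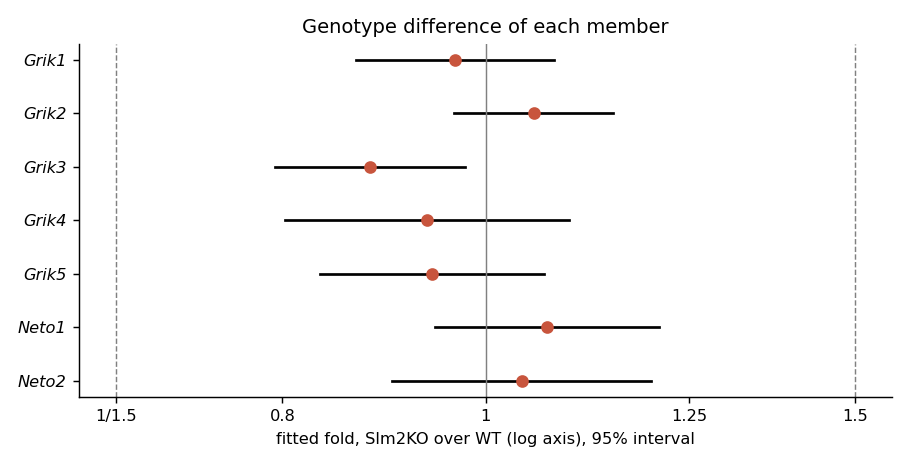
Fitted fold change of each gene, Slm2KO over WT, on a log axis (point) with its 95% interval from limma (line). Dashed lines mark 1.5-fold in either direction. Every interval lies between them, and that of Grik3, from 0.793 to 0.977, is the one that does not include 1.

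Grik3 was the gene whose groups did not overlap, as was the case for 2.50% of the features tested, 1.17% with Slm2KO the lower. Its normalised read count (chromosome 4, 125490823 to 125714173, plus strand) was 1347, 1446, 1337 and 1355 in WT 1 to WT 4. In Slm2KO 1 to Slm2KO 4 it was 1277, 1249, 1205 and 1104. Every library labelled Slm2KO lay below every WT library, with Slm2KO 4 lowest and WT 2 highest. The log2 difference was -0.18 (SE 0.0675; 0.793- to 0.977-fold), which did not pass adjustment (limma adjusted p = 1.00). The exact permutation test over its 8 values gave p = 0.0286 (two-sided), the smallest that 70 assignments allow. WT 2 and Slm2KO 4, which held the highest and lowest Grik3 values, are also the libraries of lowest and highest Ttr. Without them the difference was -0.11 (limma unadjusted p = 0.119), and without WT 2 alone it was -0.16 (limma unadjusted p = 0.0654). With all libraries kept and log2 Ttr as a covariate it was -0.18 (limma unadjusted p = 0.0139, adjusted p = 0.914). In the fit without WT 2 and Slm2KO 4, Grik2 and Neto1, both higher in Slm2KO, had unadjusted limma p-values of 0.0273 and 0.0239. Neither passed adjustment there (limma adjusted p = 0.770 for each), and 1609 of the 25484 features in that fit had an unadjusted p under 0.05.

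Markers of dentate granule cells, where Grik3 is known to be expressed, had the same sign. All 10 of 10 were negative, as were 53.9% of all features tested. Of the 10 markers 0 passed the threshold, with a median of -0.13 on the log2 scale. None was at 0. Taken singly, 2 of the 10 (Pdyn and Tdo2) had groups that did not overlap, as was the case for 2.50% of features tested. Their sum over the list was 64826 to 71960 in WT and 58002 to 63681 in Slm2KO, without overlap, and no share over other lists of this size is given for it. Dock10 was the largest part of that sum, at 27317 ± 2750 in WT and 25463 ± 1374 in Slm2KO, with overlap. Without the libraries of lowest and highest Ttr, Lct (0.0078), Trpc6 (0.090) and C1ql2 (0.092) turned positive. All other markers of this list stayed negative in that fit, from -0.056 for Plk5 to -0.25 for Dsp. Some other lists were mostly negative too, with 7 of 7 endothelial markers (median -0.29), 9 of 10 oligodendrocyte markers (-0.14) and 7 of 8 CA2 and CA3 markers (-0.14). Astrocyte (7 of 8), microglia (6 of 8) and excitatory neuron markers (6 of 8) were also mostly negative. The remaining lists were mostly positive, with 7 of 8 CA1 markers (median 0.16), 7 of 12 interneuron markers (0.03) and 6 of 10 choroid plexus markers (0.06). The part of any of these in the Grik3 difference was not tested. Other marker sums overlapped between the labels: CA2 and CA3 markers were 24959 to 26213 in WT and 21734 to 25901 in Slm2KO, CA1 markers 14855 to 29426 and 17011 to 28192, and interneuron markers 104726 to 113416 and 101317 to 119330.

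The other subunits that form channels on their own overlapped between the labels. Grik1 (chromosome 16, 87895897 to 88290265, minus strand) was 1233, 1174, 1239 and 1304 in WT 1 to WT 4 and 1291, 1100, 1228 and 1170 in Slm2KO 1 to Slm2KO 4. Slm2KO 2 was lowest and WT 4 highest, and the log2 difference was -0.05 (SE 0.0706; 0.867- to 1.08-fold; exact permutation p = 0.343). It was -0.0091 without Slm2KO 2, -0.02 without WT 4 and -0.09 without Slm2KO 1.

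Grik2 (chromosome 10, 49099463 to 49788755, minus strand) was 5243, 5412, 5154 and 5189 in WT 1 to WT 4 and 5672, 5879, 5546 and 5061 in Slm2KO 1 to Slm2KO 4. Slm2KO 1 to Slm2KO 3 lay above all WT libraries and Slm2KO 4 lay below them. The log2 difference was 0.08 (SE 0.0562; 0.966- to 1.149-fold; exact permutation p = 0.171). It was 0.12 without Slm2KO 4 and 0.05 without Slm2KO 2.

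The high-affinity subunits overlapped between the labels. Grik4 (chromosome 9, 42520412 to 42944499, minus strand) was 9216, 11570, 9131 and 9971 in WT 1 to WT 4 and 9494, 10932, 8885 and 8126 in Slm2KO 1 to Slm2KO 4. It had the widest relative spread of the 7 genes, with a coefficient of variation of 11.6% over the libraries, and WT 2 and Slm2KO 2 were both far above the rest. The log2 difference was -0.09 (SE 0.101; 0.802- to 1.10-fold; exact permutation p = 0.457). It was -0.02 without WT 2 and -0.17 without Slm2KO 2, and 0.05, of the opposite sign, without WT 2 and Slm2KO 4 together.

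Grik5 (chromosome 7, 25009853 to 25072369, minus strand) was 24961, 27707, 24211 and 24656 in WT 1 to WT 4 and 25045, 25444, 25152 and 20335 in Slm2KO 1 to Slm2KO 4. Slm2KO 1 to Slm2KO 3 lay within the WT range, and Slm2KO 4 alone lay below it. The log2 difference was -0.09 (SE 0.0794; 0.834- to 1.07-fold; exact permutation p = 0.571). It was -0.0077 without Slm2KO 4, and 0.04, of the opposite sign, without WT 2 and Slm2KO 4 together.

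The auxiliary subunits were on average higher in Slm2KO by less than the spread between libraries. Neto1 (chromosome 18, 86394951 to 86502831, plus strand), the auxiliary subunit of the mossy fibre to CA3 synapse, was 12774, 15137, 12784 and 13404 in WT 1 to WT 4 and 13688, 16444, 14498 and 13280 in Slm2KO 1 to Slm2KO 4. Slm2KO 2 and WT 2 were the highest and the groups overlapped. The log2 difference was 0.10 (SE 0.0795; 0.946- to 1.21-fold; exact permutation p = 0.343). It was 0.03 without Slm2KO 2, 0.15 without WT 2 and 0.19 without WT 2 and Slm2KO 4.

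Neto2 (chromosome 8, 85636588 to 85700924, minus strand) was 1829, 2041, 1960 and 2360 in WT 1 to WT 4 and 2059, 2423, 1993 and 2033 in Slm2KO 1 to Slm2KO 4. A single high library in each group, WT 4 and Slm2KO 2, set most of its spread. The log2 difference was 0.06 (SE 0.0919; 0.903- to 1.199-fold; exact permutation p = 0.514). It was 0.13 without WT 4 and -0.0073, of the opposite sign, without Slm2KO 2.

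**Figure D3:**
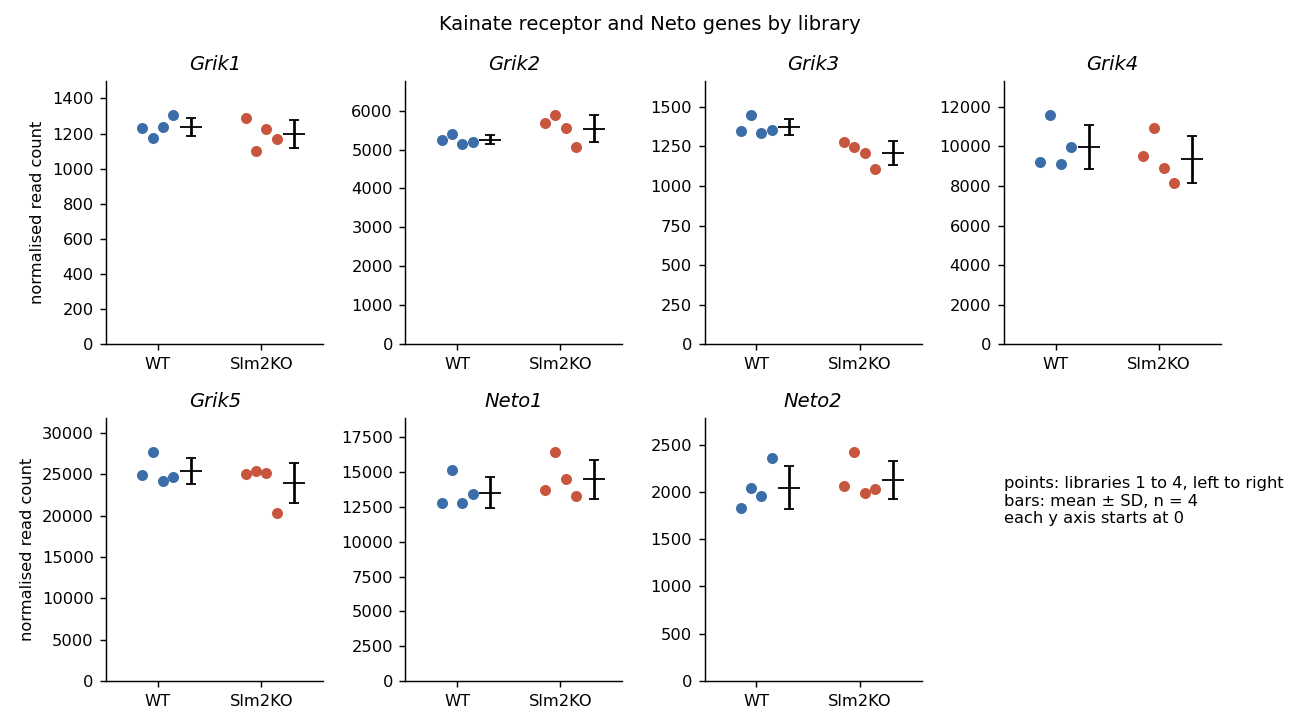
Normalised read count of the 7 genes by label, with libraries 1 to 4 from left to right as points and the mean ± SD beside them (n = 4). Grik3 is the gene whose groups do not overlap, at 1337 to 1446 in WT and 1104 to 1277 in Slm2KO.

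Coefficients of variation over the 8 libraries were 5.28% for Grik2 to 11.6% for Grik4, while the read numbers behind them, from 1025 reads for Grik3 in its lowest library to 30655 for Grik5 in its highest, allow 0.633% for Grik5 to 2.85% for Grik1. The genes did not vary alike. Grik3, Grik4 and Grik5 were highest in WT 2 and lowest in Slm2KO 4. Grik2, Neto1 and Neto2 were highest in Slm2KO 2, Grik2 was also lowest in Slm2KO 4, and Neto1 and Neto2 were lowest in WT 1. Grik1 went another way, with its highest value in WT 4 and its lowest in Slm2KO 2.

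WT 2 and Slm2KO 2 had the lowest Ttr values, 219052 and 376053, and Slm2KO 4 the highest. All 7 genes lay below their own mean in Slm2KO 4, by 0.28 on the log2 scale for Grik5 (-0.28), 0.24 for Grik4 (-0.24) and 0.22 for Grik3 (-0.22). The share of all features that did so in that library is not given here, so this cannot be read as particular to these genes. The 10 choroid plexus markers, none of them at 0, summed to 230876 to 1865401 in WT and 393647 to 2359570 in Slm2KO. The summed excitatory neuron markers were lowest in Slm2KO 4, at 483251, and highest in Slm2KO 2, at 658115, and in WT 2, at 640462. The part of tissue composition in these patterns was not tested.

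**Figure D4:**
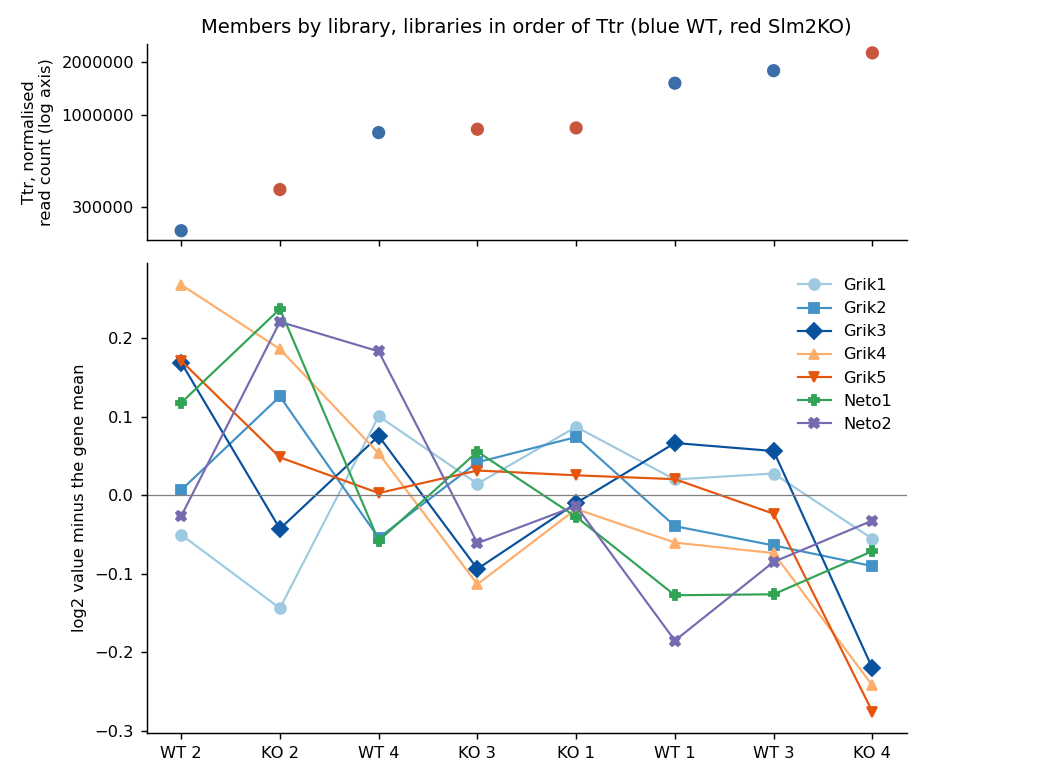
Libraries in order of their Ttr value. The upper panel gives Ttr as normalised read count on a log axis, with WT in blue and Slm2KO in red. The lower panel gives the log2 value of each gene minus its mean over the 8 libraries. Grik3, Grik4 and Grik5 lie lowest in Slm2KO 4, where Ttr is 2262369. KO on the axis stands for Slm2KO.

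Genes with the most similar pattern were sought among 14793 other symbols with a mean of at least 100, by the root-mean-square difference of mean-centred log2 values over the 8 libraries. The median gene differed by 0.118 to 0.170. Grik3 was closest to Magi1 (0.0163), a scaffold protein gene, and Pfas (0.0257), a purine synthesis enzyme gene. For Grik4, Cacna1i (0.0366), a T-type calcium channel gene, was among the closest. Grik5 was closest to Ap3d1 (0.0165), an adaptor complex gene, and Sema6b (0.0211), a semaphorin gene. For Grik2 they were Gm5801 (0.0217) and Nup133 (0.0239), a nuclear pore gene, and for Grik1 Arhgef10l (0.0326) and the joint row Csrp2bp // Pet117 (0.0329). Neto1 was less closely matched, by Tmem215 (0.0403) and Tnfaip8l1 (0.0423), as was Neto2, by the phosphatase gene Ptpn4 (0.0457) and Pcdhb11 (0.0467). With so many genes and 8 libraries these are descriptions only.

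The table also holds 32 features that overlap the member genes as annotated or counted, 30 of them without a symbol and 27 on the same strand. Of these 13 were tested and 0 passed the threshold in limma, with 2 at an unadjusted p under 0.05, against 3.52% of all features tested. DESeq2 called 1 of the 13 (GSMG0018663, beside Neto1), and 9 among all 25667 features. It gave no adjusted p for 6472 of the 25667, some of the 13 among them, so those could not be called. Grik2 held 14, and all 7 of its tested ones had a positive difference, from 0.14 to 0.51 on the log2 scale, where 53.9% of all features tested were negative. These 7 lie on the same strand over 1 gene, so they are not independent. Among them only C130030K03Rik had an unadjusted p under 0.05 (limma unadjusted p = 0.0436). GSMG0004065 (chromosome 10, 49248496 to 49250359), in an intron of Grik2, was 467 ± 15.8 in WT and 538 ± 101 in Slm2KO, a log2 difference of 0.19 (SE 0.127; limma unadjusted p = 0.170). GSMG0004063, also in an intron (chromosome 10, 49219422 to 49225655), was at 12.6 ± 7.46 and 16.9 ± 5.34, near the minimum mean of 10 for testing. The largest of the 7 differences, 0.51, was its own (SE 0.408; limma unadjusted p = 0.241).

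Beyond the counted end of Neto1 and of Grik2 lies a separate feature that overlaps annotated exon of the same gene but none of its coding bases. For Neto1 this is GSMG0018663 (chromosome 18, 86505750 to 86508239), 2490 bases long, of which 969 are annotated Neto1 exon. It was 1811, 1911, 1647 and 1800 in WT 1 to WT 4 and 2181, 2452, 2714 and 2314 in Slm2KO 1 to Slm2KO 4. The groups did not overlap, as was the case for 2.50% of the features tested, 1.33% with Slm2KO the higher. Relative to Neto1 itself it was 14.2%, 12.6%, 12.9% and 13.4% in WT 1 to WT 4, and 15.9%, 14.9%, 18.7% and 17.4% in Slm2KO 1 to Slm2KO 4. The means were 13.3% ± 0.686 and 16.7% ± 1.67, so the ratio to the gene was 1.26 times as high in Slm2KO, and the groups did not overlap. The feature did not pass in limma (log2 difference 0.43, SE 0.0787, adjusted p = 1.00), while DESeq2 on the recovered reads called it (adjusted p = 0.00191).

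For Grik2 the corresponding feature is C130030K03Rik (chromosome 10, 49093335 to 49097448), with 2616 of 4114 bases in annotated Grik2 exon. Relative to Grik2 it was 56.9%, 55.5%, 53.9% and 56.5% in WT 1 to WT 4. In the libraries labelled Slm2KO it was 50.9%, 54.8%, 67.9% and 68.2%, so Slm2KO 3 and Slm2KO 4 stood above all others while Slm2KO 1 and Slm2KO 2 did not. Slm2KO 3 and Slm2KO 4 have label numbers above 300 and Y-linked reads, whereas Slm2KO 1 and Slm2KO 2 have label numbers under 300 and at most 1.85 normalised Y-linked reads. In the libraries labelled Slm2KO these 2 traits go together, so they cannot be told apart. Among WT libraries, WT 4 (Y-linked reads, number above 300) was at 56.5% and WT 3 (no Y-linked reads, number above 300) at 53.9%. WT 1 and WT 2 (at most 3.62 normalised Y-linked reads, numbers under 300) were at 56.9% and 55.5%. The part of either in the ratio was not tested. Between the labels the log2 ratio of this feature to Grik2 differed by 0.11, by 0.05 without Slm2KO 3 or without Slm2KO 4, and by 0.19 without Slm2KO 1. These 2 ratios were chosen after their values were seen and carry no test.

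**Figure D5:**
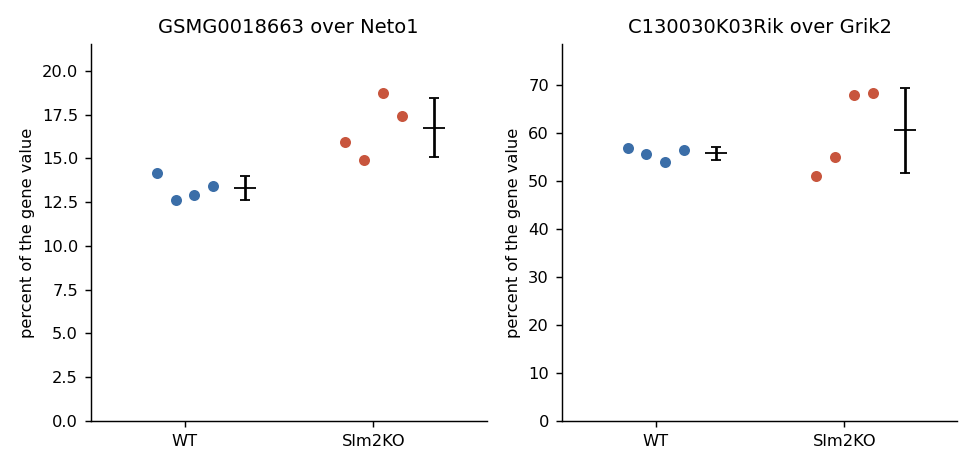
Value of the feature beyond the counted end of Neto1 (left) and Grik2 (right) as a percentage of the value of the gene, by library 1 to 4 from left to right, with the mean ± SD (n = 4). For Neto1 the libraries labelled Slm2KO lie at 14.9% to 18.7% and WT at 12.6% to 14.2%. For Grik2 the 2 groups overlap.

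Genes that act with kainate receptors did not pass either. Of 20 partners tested (scaffolds, trafficking, modification and editing), 0 were higher and 0 lower past the threshold, with 6 positive and 14 negative and a median of -0.02 on the log2 scale against -0.01 for all features. Among those of smallest p-value was Prkca, the kinase PKC alpha, at 17467 ± 1659 in WT and 16065 ± 1288 in Slm2KO (log2 difference -0.12). Adarb1, the enzyme that edits the pore of GluK1 and GluK2 transcripts, followed at 6454 ± 361 and 6106 ± 220 (-0.08), with Klhl17, an actin-binding protein that recruits GluK2 to a ubiquitin ligase, at 4282 ± 445 and 3960 ± 470 (-0.12). The groups overlapped for all 20.

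Of 12 AMPA, NMDA and delta receptor genes tested, 0 passed, 3 were positive and 9 negative, with a median of -0.04. The smallest p-values were those of the NMDA receptor subunit genes Grin2c at 4196 ± 299 and 3732 ± 353 (log2 difference -0.17), Grin2a at 6130 ± 930 and 5494 ± 707 (-0.15), Grin2d at 922 ± 141 and 837 ± 71.4 (-0.13) and Grin3a at 1968 ± 269 and 2182 ± 381 (0.14), each SD with n = 4. The groups overlapped for all 12.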

How the data were processed

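Per the submitters' processing notes and the file header, the authors scaled reads per gene with DESeq. The deposited values are a signal, normalised read counts not divided by gene length, on mm10 coordinates; the notes list hg19, and the aligner and counter were not given in the sources used here. In all 8 libraries 100% of values were whole multiples of 1 step within 0.001 of a read, so reads were recovered (104020058 to 125985224 per library). That of WT 1 was close to 1. WT and Slm2KO were compared over 25667 features of mean at least 10 by limma 3.58.1 in R 4.3.3, fitted to log2(value + 1) with trended variance and Benjamini-Hochberg adjustment at 0.05, checked on simulated data. Fold changes are on that scale. Single genes had two-sided exact permutation tests. edgeR 4.0.16 and DESeq2 1.42.0 on the recovered reads were alternatives. Shares used exon lengths of GENCODE vM21. Members and lists were chosen with earlier results of these data known. From each pathway list up to 4 genes of smallest p were named, with any past the threshold, of the unnamed features over the member genes the 3 of smallest p, and for each member the 2 genes most like it. The other marker lists, with counts of negative members and median log2 difference, were CA2 and CA3 (7 of 8, -0.14), CA1 (1 of 8, 0.16), interneuron (5 of 12, 0.03), choroid plexus (4 of 10, 0.06), excitatory neuron (6 of 8, -0.03), astrocyte (7 of 8, -0.08), oligodendrocyte (9 of 10, -0.14), microglia (6 of 8, -0.06) and endothelial (7 of 7, -0.29), with 0 members past the threshold. Kif17, Grin3b and Pcp4 were not analysed here. Some genes that this rule names are not reported here.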

Additional observations from a re-analysis of the deposited data

Results flagged for a closer look

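In groups of 4, a library was looked at again when its gap to the nearest other library exceeded Dixon's 95% critical share of the range of the group, which chance gives in about 1 in 20 groups. Of 48 groups of values tested 6 met this, and they share libraries, so they are not independent. Grik5 in Slm2KO 4 was 20335, against 25045 to 25444 in the other libraries labelled Slm2KO. In the same library the Grik2 share of the kainate receptor sum was 9.92%, against 9.19% to 9.26%. In WT 2, Grik3 was 1446, against 1337 to 1355, Grik5 was 7.81 times Grik2 per length, and the summed share of Grik1, Grik2 and Grik3 was 11.6%, against 12.9% to 13.1%. Neto2 in Slm2KO 2 was 2423, against 1993 to 2059. WT 2 and Slm2KO 4 are the libraries of lowest and highest Ttr. The part of that in these values was not tested.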

How the results depend on the processing

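Over 23 alternatives, 0 of the 7 genes passed the threshold in any, and Grik1, Grik2, Grik3 and Neto1 kept their sign in all. Without WT 2 and Slm2KO 4 the log2 difference turned to 0.045 for Grik4 and 0.035 for Grik5. With all libraries kept and log2 Ttr as a covariate it was -0.082 for Grik4 and -0.078 for Grik5. The difference of Neto2 turned to -0.0073 without Slm2KO 2, against 0.127 without WT 4. The cause was not tested. The difference of Grik3 ran from -0.21 without Slm2KO 1 to -0.11 without WT 2 and Slm2KO 4. The number of features past the threshold, 1, was 9 with DESeq2, 0 in limma without the trend, 2 with Ttr as a covariate or a pseudocount of 10, and 0 to 2 when single libraries were left out (0 without WT 1, WT 4, Slm2KO 1 or Slm2KO 3, and 2 without Slm2KO 2 or Slm2KO 4). With the longest transcript as length the mean shares over libraries were 3.62% for Grik1, 6.21% for Grik2, 1.56% for Grik3, 17.7% for Grik4, 70.9% for Grik5 and 18.2% for Neto2 in the Neto sum. Without division by length they were 12.8% for Grik2, 3.06% for Grik3, 22.8% for Grik4, 58.4% for Grik5 and 13.0% for Neto2, and the Grik3 share differed by -0.243 percentage points between the labels. With the replicate number as a block, 1 feature and 0 of the 7 genes passed. Correlations of same-numbered deviations from the group means were 0.124, 0.323, -0.0654 and -0.122. Those of differently numbered libraries ran from -0.322 (WT 2 with Slm2KO 4) to 0.317 (WT 3 with Slm2KO 4). Such deviations sum to 0 within each group, so these correlations cannot decide whether libraries were paired. Leaving out single libraries moved the log2 ratio of GSMG0018663 to Neto1, an alternative added after seeing the data, between 0.276 and 0.385, and that of C130030K03Rik to Grik2 between 0.045 without Slm2KO 4 and 0.186 without Slm2KO 1.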
